A study of Mus musculus with 6 samples.

Results

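The cytosolic ribosomal protein genes were followed in gastrocnemius, a calf muscle, of male C57BL/6J mice across 3 diets and 2 lengths of fasting. Members were chosen by name alone: genes whose single symbol in the platform annotation begins with Rpl or Rps and a digit, or is Rplp0, Rplp1, Rplp2 or Rpsa, without S6 kinases and pseudogenes. This gave 50 of 18193 named genes, among them 20 proteins of the large subunit, 21 of the small subunit, 2 of the P-stalk, 6 paralogues and Rps19bp1, which binds Rps19 but is no subunit. Some well-known names are no members here, since no probe set carried them as its only symbol: Rpl3, Rpl5, Rpl10, Rpl10l, Rpl36a, Rpl36al, Rplp1 and Rps27a. Another 110 probe sets list a ribosomal protein together with other symbols and were not used.

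All mice were of one strain and sex, and the labels name no engineered allele. Feeding began at 6 weeks of age and lasted 15 weeks; the labels also give an age of 21 months, which these times do not add up to. Control mice had a diet with 10% of its energy as fat, and HF mice one with 60%. In HF+SFC+ALA the same high-fat chow carried an iron salt, sodium ferrous citrate (SFC, 0.023% w/w), and the phosphate of 5-aminolevulinic acid (ALA, 0.2% w/w), which cells turn into heme. Each diet was sampled after 4 h and 24 h without food. Every combination was 1 array of RNA pooled within its group, so there were 6 arrays, no replicates of a combination, and 3 pools per fasting time or 2 per diet. The sources used here do not say how many animals a pool held. The p-values therefore set each difference against the spread between pools that is left once diet and fasting time are removed. That spread also holds any difference in fasting response between diets, and it is estimated in part from the other genes. Precision is limited by having only 6 arrays.

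Ribosomal proteins are made in near equal numbers and assembled on ribosomal RNA in the nucleolus, with help from a large set of biogenesis factors. Their mRNAs are abundant and usually begin with a cytosine and a run of pyrimidines, the terminal oligopyrimidine (TOP) motif. Through this motif their translation follows mTORC1, the growth kinase complex that responds to food and insulin, and part of the control therefore acts on translation and is not seen in mRNA levels. In muscle, Rpl3l takes the place of Rpl3 in a share of ribosomes.

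The start-site windows below show pyrimidine runs around annotated starts, for a selection of members with long runs and of members named in the later results. Promoter sequences from RefSeq (mouse build GRCm38.p6) matched 44 of the 50 members. Each window runs from 20 bases before the annotated start through the first 20 transcribed bases, 5′ to 3′ on the gene's strand, and capitals mark pyrimidine runs of at least 8. Rpl7a (chr2:26910787-26910826, plus strand) holds a run of 21 and Rpl35 (chr2:39005112-39005151, minus strand) one of 18. Rps10 (chr17:27635225-27635264, minus), Rps18 (chr17:33955646-33955685, minus), Rplp2 (chr7:141447631-141447670, plus) and Rps6 (chr4:86857348-86857387, minus) hold shorter ones. Rps27l (chr9:66946066-66946105, plus) and Rpl39 (chrX:37085203-37085242, minus) are shown because their Control pools did not overlap those of the other diets. The runs of Rps27l and Rpl39 lie wholly before the annotated start and so outside the annotated mRNA. Other members whose Control pools did not overlap are not shown. Among them Rpl14 has a run of 14 that spans the annotated start, and Rpsa has no run of at least 8. Rpl3l (chr17:24727806-24727845, plus), the muscle paralogue, has no such run.
Rpl7a: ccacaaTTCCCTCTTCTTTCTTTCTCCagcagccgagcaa
Rpl35: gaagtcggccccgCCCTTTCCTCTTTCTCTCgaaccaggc
Rps10: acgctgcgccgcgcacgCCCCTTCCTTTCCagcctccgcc
Rps18: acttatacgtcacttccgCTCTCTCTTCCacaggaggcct
Rplp2: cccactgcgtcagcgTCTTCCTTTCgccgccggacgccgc
Rps6: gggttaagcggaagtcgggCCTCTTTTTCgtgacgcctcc
Rps27l: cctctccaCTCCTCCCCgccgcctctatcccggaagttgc
Rpl39: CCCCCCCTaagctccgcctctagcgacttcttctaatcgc
Rpl3l: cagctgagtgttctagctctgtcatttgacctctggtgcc

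A run of at least 8 pyrimidines within 20 bases of the start was present in 20 of the 44 members (45.5%), beside 18.4% of the 27025 genes with a promoter sequence, 19.4% of those tested and 18.8% of 69 mitochondrial ribosomal proteins. A stricter form, a C at the annotated first base followed by at least 4 pyrimidines, was found in 8 members (18.2%), 3.01% of all genes and 0 of the 69 mitochondrial ones. Among the windows shown, Rpl35, Rps10, Rps18, Rplp2 and Rps6 have it, and Rpl7a, Rps27l, Rpl39 and Rpl3l do not. The word CCGGAAG, searched on both strands from 250 bases before the start to 50 after it, was present in 21 members (47.7%), 9.93% of all genes, 19.6% of those tested and 37.7% of the mitochondrial ribosomal proteins. These patterns were settled after the members' windows had been seen, and a match is a description of the letters only.

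On the arrays the members fell into a bright and a dim group with a gap in between. For 37 members the signal, a linear intensity, lay between 10690 and 50214 in every pool, and for the other 13 it stayed at or below 2854. The division at a mean log2 signal of 13 was made after the values were seen; the members nearest to it had means of 13.51 (Rpl22l1) and 11.28 (Rpl37). The dim members were Rpl12, Rpl14, Rpl27a, Rpl37, Rpl39, Rpl39l, Rpl7l1, Rps4l, Rps6, Rps16, Rps25, Rps27 and Rps19bp1. A dim signal belongs to the probe set, and levels of different probe sets were not set against each other. Rps16, a small-subunit protein, was listed at 1.16 to 2.35 in every pool, far under the floor of 26.4, and Rpl39l, a paralogue of Rpl39, was under the floor in 2 pools. Both failed the signal filter, so that 48 members were tested among 11526 genes.

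On the probe sets used, the bright members hardly varied between pools. Their highest pool exceeded their lowest by a median of 1.11-fold (1.06 to 1.26), and 35 of the 37 (94.6%) stayed under 1.2-fold. They were set beside 393 other genes with a mean log2 signal of at least 13.505, the lowest mean among the bright members. For these other bright genes the median was 1.17-fold and 63.1% stayed under 1.2-fold. Among all genes tested the values were 1.42-fold and 15.2%. Rps18 and Rpl13a, both common reference genes for quantitative PCR, serve as examples. The signals of Rpl13a were 27795 (Control), 26710.0 (HF) and 27561 (HF+SFC+ALA) at 4 h and 28398, 27062 and 26129 at 24 h. All 6 lay close together, lowest in the HF+SFC+ALA pool at 24 h. The further probe sets of Rpl13a ran from 11132 to 12575, from 3889 to 4361 and from 586 to 825. Signals of Rps18 were 15632, 16706 and 17775 at 4 h and 17182, 18654 and 17402 at 24 h in the same order. The Control pool at 4 h was the lowest, and Control overlapped the other diets. On a second probe set of Rps18 the Control pool at 4 h was the highest (15803, the others 13606 to 14763), so this order belongs to the probe set. Some further probe sets of bright members varied more than the one used. Those of Rpl37a ran from 18557 to 22069 and from 68.8 to 841. The highest signal of any probe set was 57775 to 64863 per array; whether the brightest members, up to 50214 in Rps29, still tracked their mRNA at that brightness was not tested. The dim members varied more, up to 6.67-fold in Rpl39, and 6 of the 13 differed by at least 1.5-fold between pools.

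**Figure D1:**
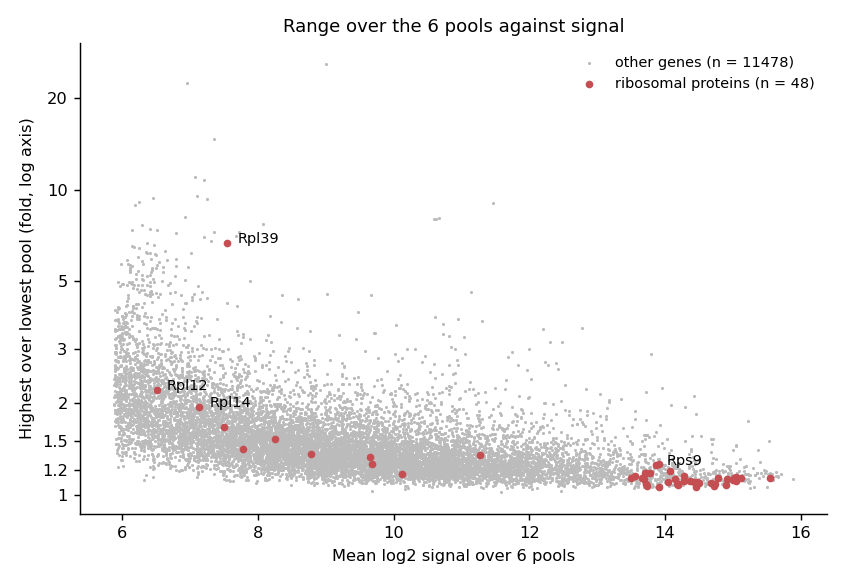
Ratio of the highest to the lowest pool (log axis) against the mean log2 signal over the 6 pools, for 48 ribosomal protein genes (red) and all other genes tested (grey). Bright ribosomal protein genes lie at 1.06 to 1.26-fold on the right, and Rpl39 at 6.67-fold on the left.

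Fasting was compared as 24 h against 4 h with diet held as a block. None of the 48 members passed the test (0 called by limma, adjusted p under 0.05), and 1 had an unadjusted p under 0.05; 2.41% of all genes tested were called, and 17.7% had an unadjusted p under 0.05. The members' median log2 difference was -0.02, beside 0.01 over all genes. For all 37 bright members the 95% interval lay between -0.27 and 0.24 on the log2 scale, inside 1.5-fold either way, as it did for 66.5% of all genes and 44 of the 48 members. Pools at 24 h lay wholly above those at 4 h in 0 members (10.6% of all genes) and wholly below in 3 (8.36%). The sign was the same in all 3 diets for 2 members that were higher (21%) and 9 that were lower (18.3%).

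The member with the unadjusted p was Rpl7l1, a paralogue of Rpl7. Its signals were 858, 921 and 894 at 4 h and 802, 757 and 730.1 at 24 h (Control, HF, HF+SFC+ALA). The 3 pools at 24 h were all below the 3 at 4 h, and the fitted difference was -0.22 ± 0.10 (SE; limma adjusted p = 0.265). Its remaining probe sets gave -0.08 and -0.11. Rps19bp1 (-0.23 ± 0.12) and Rpl37 (-0.17 ± 0.07) were likewise lower in each of the 3 diets without passing. Rps4l, a paralogue of Rps4x, had 189, 239.5 and 188 at 4 h and 235, 264 and 210.2 at 24 h. Each diet's pool was higher at 24 h, the fitted difference was 0.21 ± 0.16, and the fasting times overlapped. Rps3, Rps19 and Rpl35 followed with differences of -0.08, -0.08 and -0.06, and Rpl37a with 0.07. The further probe sets of Rpl37a gave 0.01 and, on a dim one, 1.47.

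In single diets the fasting values were as follows. Between 24 h and 4 h the members' median was 0.01 in Control (21 of 48 lower), 0.02 in HF (18 lower) and -0.09 in HF+SFC+ALA (40 lower). The HF+SFC+ALA pool at 24 h was the lowest of the 6 for 22 members (45.8%), among them 12 of the 20 small-subunit proteins tested, and this pool was the lowest for 15.7% of all genes. Among bright members alone the share was 54.1%, beside 24.9% of the 393 other bright genes. The Control pool at 24 h was the highest for 19 members (39.6%), beside 22.9% of all genes. Other bright genes were lower there too: 279 of the 393 were lower at 24 h in HF+SFC+ALA, with a median of -0.06, as were 12 of 12 muscle fibre markers, with a median of -0.11. After quantile normalization the members' medians were -0.01, -0.04 and -0.03, so the lower HF+SFC+ALA value is not separate from the others under that scaling. With arrays centred on the median they were -0.02, -0.01 and -0.10, so there the HF+SFC+ALA value stayed below the others. In the centred values 42 of 48 members were lower in HF+SFC+ALA at 24 h, as were 295 of the 393 other bright genes. Whether the fasting response of the members differs between diets was not tested, since each pair is 1 pool against 1.

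**Figure D2:**
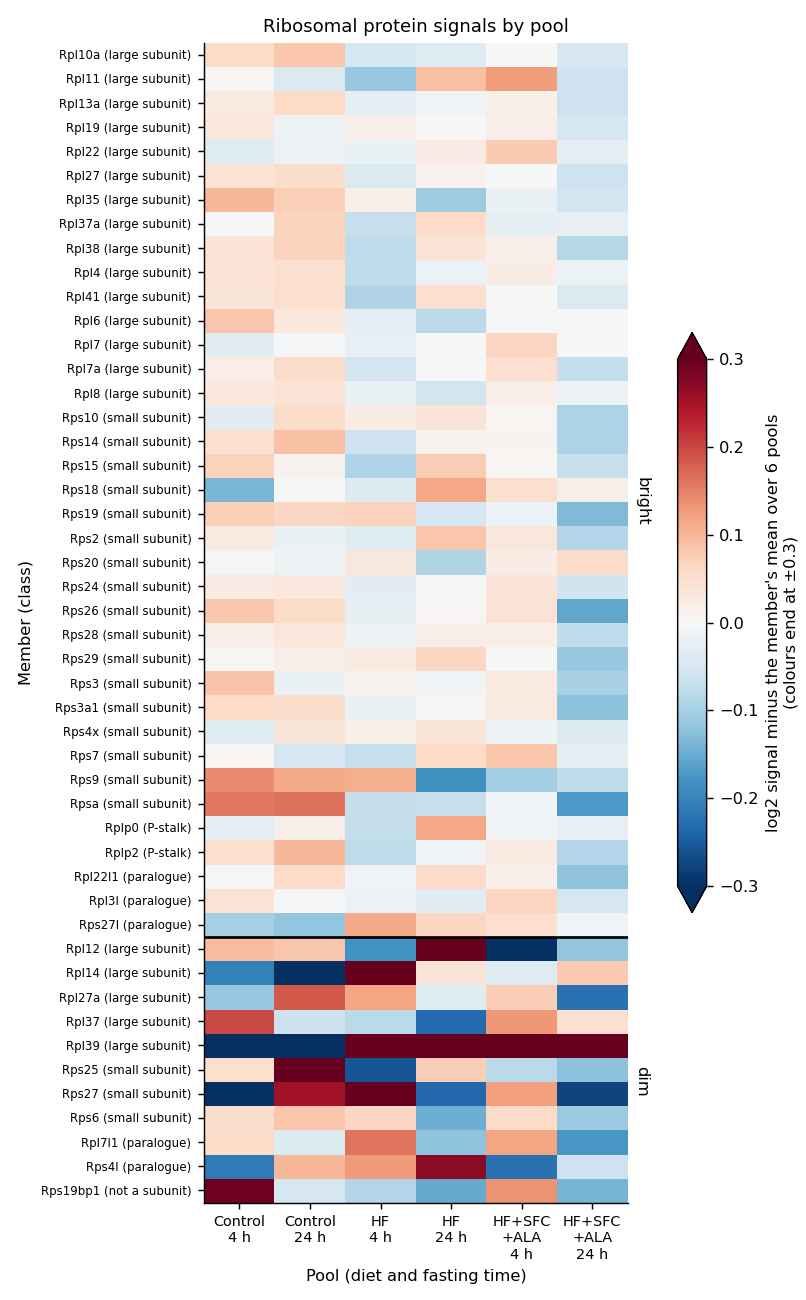
Log2 signal of each tested member in each pool minus the member's own mean over the 6 pools (colour, ending at ±0.3); bright members are above the line and dim ones below. The column of the HF+SFC+ALA pool at 24 h is mostly blue, the lowest pool for 22 of 48 members, while most colours among bright members are pale.

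HF was compared with Control with fasting time held as a block. Again limma called 0 of the 48 members (0.885% of all genes were called), and 4 had an unadjusted p under 0.05 (14.7% of all genes). The median of the members was -0.04, beside -0.00 over all genes, and 30 of 48 differences were negative. Both HF pools lay below both Control pools in 18 members (18.9% of all genes) and above in 5 (19.7%). The sign was the same at both fasting times for 25 members that were lower (30.6%) and 8 that were higher (29.4%). Of the 37 bright members 16 lay below in this way, as did 78 of the 393 other bright genes. Members are measured on the same 6 arrays, so such counts are not independent observations. The size was small throughout: intervals of all bright members ran from -0.41 to 0.36 at most, and 42 of the 48 members had one inside 1.5-fold (56.2% of all genes). In single pairs the median was -0.06 at 4 h and -0.03 at 24 h, and the other bright genes had -0.06 and 0.03.

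Rpl39 had the largest difference among the members. It encodes a very small protein that lines the exit tunnel of the large subunit. Its signals were 145 and 46.3 in Control, 309 and 259.9 in HF and 258 and 304 in HF+SFC+ALA, at 4 h and 24 h. Both Control pools were below all 4 others and differed widely between themselves. The fitted difference was 1.79 ± 0.38 for HF (3.46-fold, 95% interval 0.93 to 2.66, adjusted p = 0.0757) and 1.77 ± 0.38 for HF+SFC+ALA (3.42-fold, adjusted p = 0.167), each against Control and short of the threshold in limma. Only 1 dim probe set represents Rpl39. With each pool left out in turn the HF difference ran from 0.97 (without Control at 24 h) to 2.61 (without Control at 4 h), and that of HF+SFC+ALA from 0.95 to 2.59. Without either Control pool the HF difference passed the threshold, as did that of HF+SFC+ALA without Control at 4 h. In these fits Control is 1 array whose spread is assumed to be that of the other groups, so they leave out the very gap between the Control pools and lend no support to a call.

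Rpsa, a small-subunit protein also known as the laminin receptor, had signals of 17176 and 17221 in Control, 14641 and 14669 in HF and 15278 and 13651 in HF+SFC+ALA at 4 h and 24 h. All 4 high-fat pools were below both Control pools, and the pools of HF were nearly equal. Its difference was -0.23 ± 0.08 for HF against Control (adjusted p = 0.235) and -0.25 ± 0.08 for HF+SFC+ALA against Control (adjusted p = 0.289), neither called by limma. Rps27l, a paralogue of Rps27 that p53 can induce, went the other way. Its signals were 12450.4 and 12292 in Control, 14428 and 13938.5 in HF and 13816 and 13214 in HF+SFC+ALA. Control was again the lowest diet without overlap, with a difference of 0.20 ± 0.07 for HF (adjusted p = 0.271), and its 3 probe sets gave 0.20, 0.23 and 0.24. Rps27 itself, on a dim probe set, had 0.12 ± 0.30, with pairs of 0.73 at 4 h and -0.49 at 24 h.

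Further members were lower in HF at 4 h and at 24 h: Rps25 (-0.29 ± 0.18), Rps19bp1 (-0.24 ± 0.15), Rpl37 (-0.22 ± 0.09), Rps9 (-0.17 ± 0.09) and Rpl35 (-0.13 ± 0.08). Higher ones were Rpl14 (0.60 ± 0.27), Rps4l (0.25 ± 0.20), Rps18 (0.11 ± 0.08) and Rps29 (0.03 ± 0.08). None passed the test. On further probe sets above the filter Rps18 (-0.14 and -0.04) and Rps29 (-0.04 and -0.07) were lower in HF. Rpl14, a large-subunit protein, had 122 and 105 in Control, 204 and 144 in HF and 137 and 148 in HF+SFC+ALA. The HF pool at 4 h was the highest and both Control pools the lowest.

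**Figure D3:**
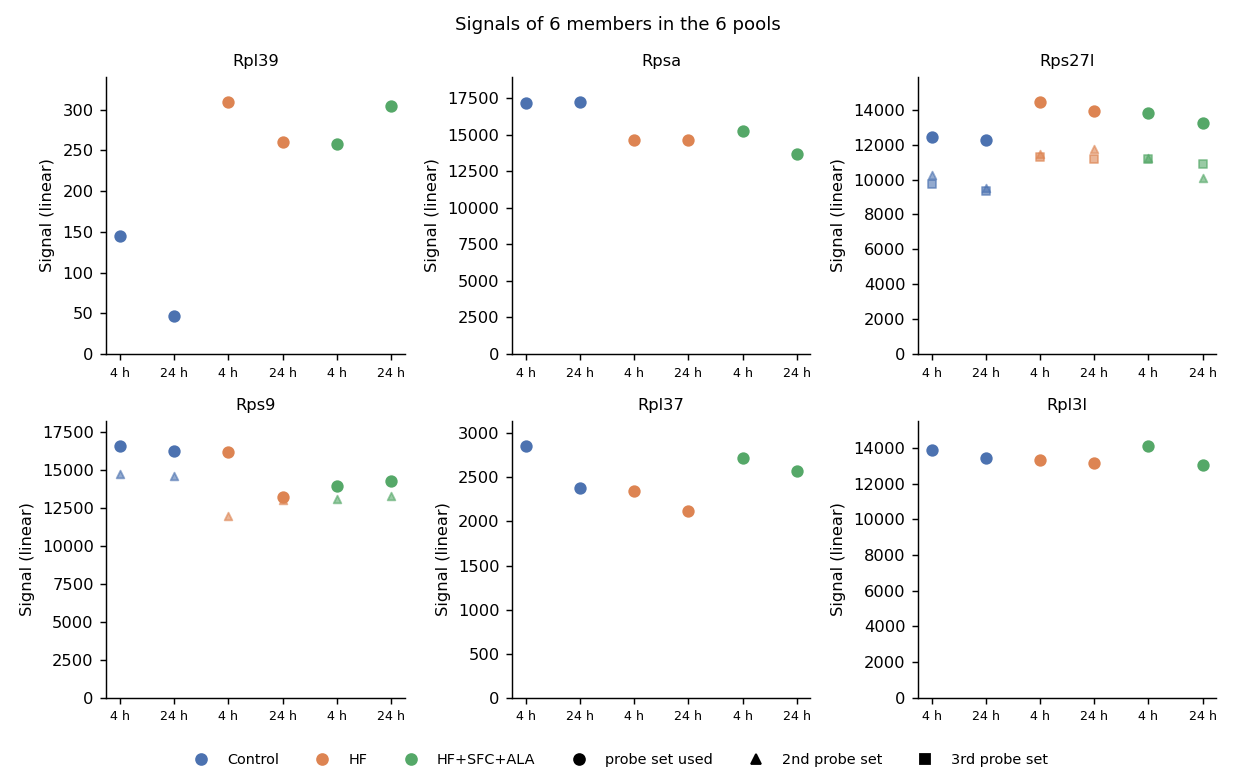
Linear signals of Rpl39, Rpsa, Rps27l, Rps9, Rpl37 and Rpl3l in the 6 pools, by diet (colour) and fasting time (axis); smaller marks are the further probe sets above the filter. Control pools are lowest for Rpl39 (46.3 and 145) and highest for Rpsa (17176 and 17221), while Rpl3l lies between 13032 and 14111 throughout.

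The supplement was compared on the high-fat background, as HF+SFC+ALA against HF. It shares its HF pools with the previous comparison, and the comparison with Control shares the Control pools. Here limma called 0 members, as it called 0 of all genes (0%), and 1 member had an unadjusted p under 0.05 (5.08% of all genes). The members' median was -0.02, beside -0.00 over all genes. It was 0.04 at 4 h and -0.08 at 24 h, after quantile normalization -0.01 and -0.01, and with arrays centred on the median 0.05 and -0.05. Pools did not overlap in 4 members that were higher (13.1% of all genes) and 5 that were lower (15.8%). At both fasting times 5 members were higher (24%) and 10 lower (26.7%). Intervals of the bright members reached from -0.28 to 0.26, and 43 of the 48 members had one inside 1.5-fold (62.5% of all genes).

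Rpl37, a large-subunit protein, was the member with an unadjusted p under 0.05. Its signals were 2854 and 2378 in Control, 2351 and 2115 in HF and 2723 and 2575 in HF+SFC+ALA at 4 h and 24 h. Both HF+SFC+ALA pools were above both HF pools and within the range of Control, with a difference of 0.25 ± 0.09 (limma adjusted p = 0.863). Rpl12, which forms the base of the stalk, had 97.1 and 96.3 in Control, 80.2 and 141 in HF and 63.9 and 83.8 in HF+SFC+ALA. The diets overlapped, and the difference from HF was -0.54 ± 0.34. Also lower at both times were Rps4l (-0.34 ± 0.20), Rps27 (-0.18 ± 0.30), Rpl27a (-0.12 ± 0.15), Rps29 (-0.10 ± 0.08) and Rps19 (-0.08 ± 0.08). Higher at both times were Rps19bp1 (0.12 ± 0.15), Rpl6 (0.05 ± 0.07), Rpl7 (0.05 ± 0.08) and Rpl8 (0.04 ± 0.07).

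HF+SFC+ALA against Control gave 0 called members in limma (0.0347% of all genes were called) and 3 with an unadjusted p under 0.05 (12.4% of all genes): Rpl39, Rpsa and Rps9. The median was -0.06, beside -0.01 over all genes, and 38 of 48 differences were negative. Pools of HF+SFC+ALA lay wholly below Control in 21 members (19.9% of all genes) and above in 6 (18.6%). At both fasting times 25 were lower (32.2%) and 7 higher (29.4%), and 43 of 48 intervals lay inside 1.5-fold (58.2%). The small-subunit median was -0.07 and the large-subunit median -0.05. Rps9, of the small subunit, had 16556 and 16234 in Control, 16177 and 13207 in HF and 13965 and 14232 in HF+SFC+ALA. Both supplemented pools were below both Control pools, by -0.22 ± 0.09 (adjusted p = 0.385), and the 2 HF pools differed from each other. On a second probe set the HF pool at 4 h (11993) was below both Control pools (14709 and 14572), while on the one used it was close to them. Rpl12 (-0.40 ± 0.34), Rps25 (-0.30 ± 0.18), Rps19 (-0.14 ± 0.08) and Rps26 (-0.13 ± 0.08) were also lower, and Rpl14 (0.33 ± 0.27), Rps27l (0.13 ± 0.07), Rps18 (0.10 ± 0.08), Rpl7 (0.05 ± 0.08) and Rps20 (0.05 ± 0.08) higher at both times. On further probe sets above the filter Rps18 had -0.13 and -0.07, and Rps20 had -0.03, 0.08 and -0.16. Those of Rps27l and Rpl7 were all positive.

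**Figure D4:**
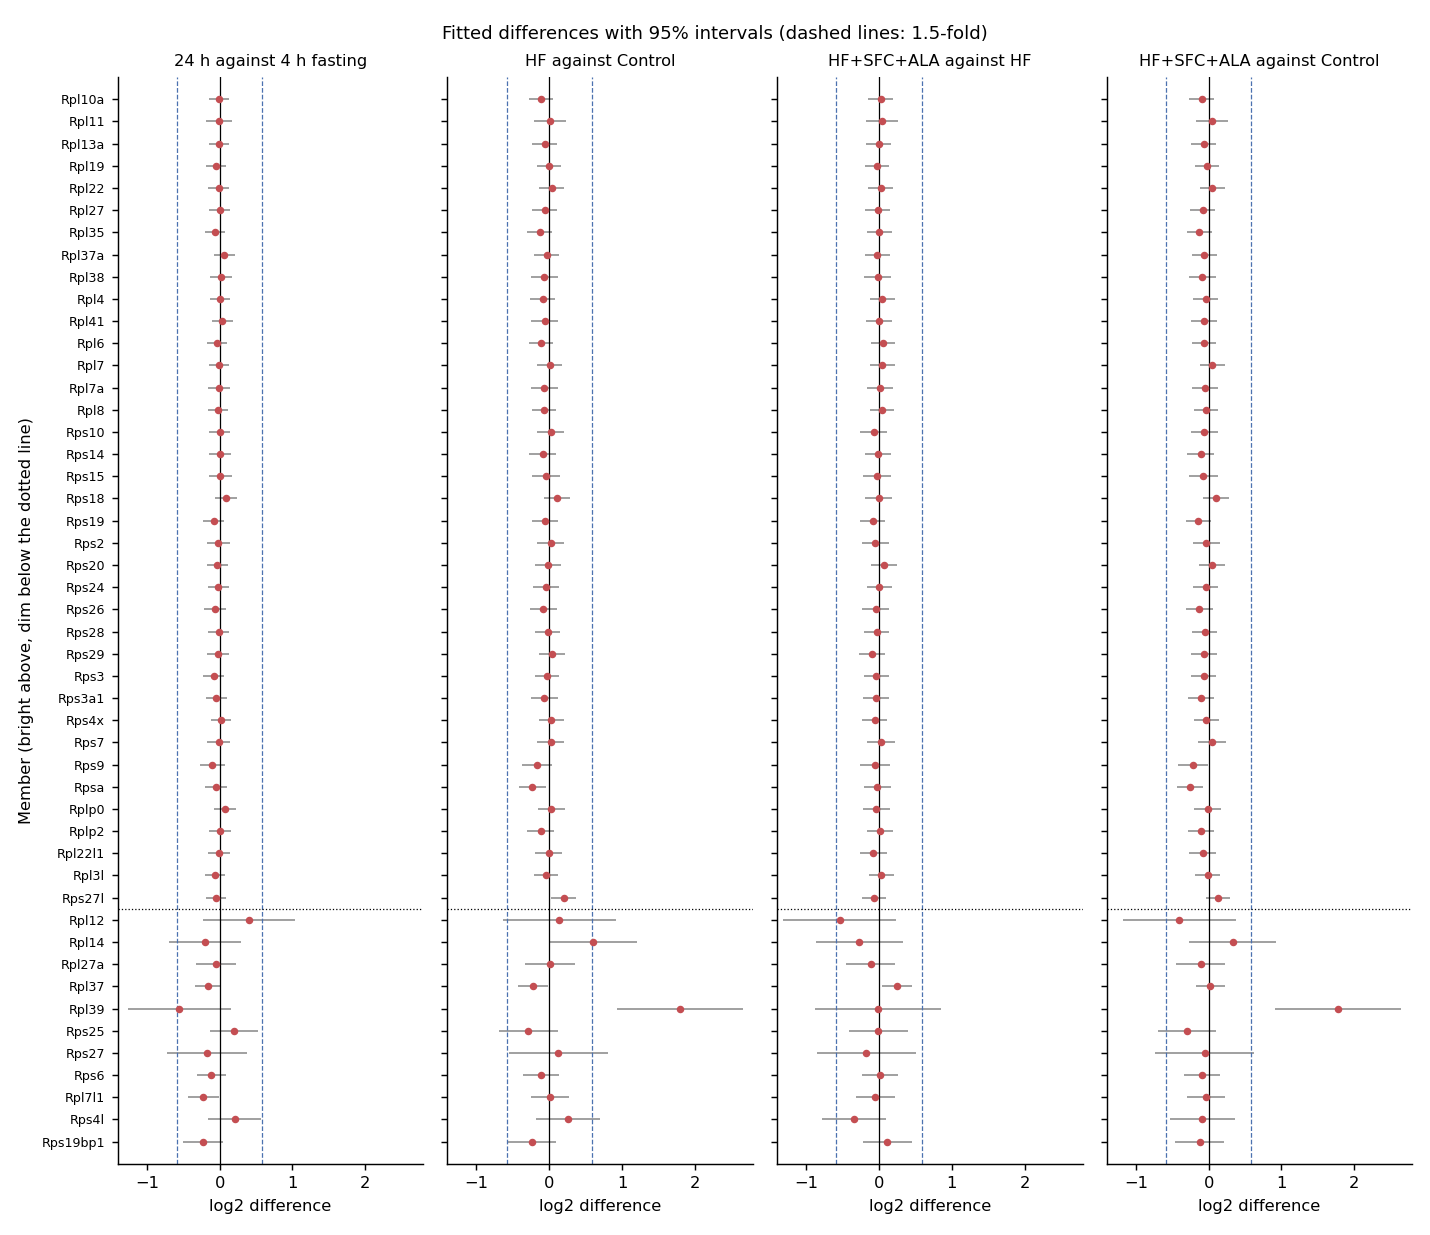
Fitted log2 difference of each tested member (point) with its 95% interval (line) in the 4 comparisons; dashed lines mark 1.5-fold. All intervals of the 37 bright members lie inside the dashed lines, while that of Rpl39 lies outside them in both comparisons with Control.

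The paralogues and proteins with roles beyond translation were read whatever their values. Rpl3l, the muscle paralogue of Rpl3, had signals of 13922 and 13464 in Control, 13340.3 and 13190.1 in HF and 14111 and 13032 in HF+SFC+ALA. The diets overlapped, and its differences were -0.06 ± 0.06 for fasting, -0.05 ± 0.08 for HF and 0.03 ± 0.08 for the supplement. Rpl22 and its paralogue Rpl22l1 had 0.03 and -0.01 for HF and 0.02 and -0.08 for the supplement. Rps4x had 0.03 and -0.06, and Rpl7 0.01 and 0.05, in the same order. The further probe sets of Rpl22 gave 0.03 and -0.39 for HF and 0.04 and -0.06 for the supplement. The stalk proteins Rplp0 and Rplp2, which bring elongation factors to the ribosome, had 0.03 ± 0.08 and -0.12 ± 0.08 for HF and 0.07 ± 0.07 and 0.00 ± 0.07 for fasting. Rps6, the substrate of the S6 kinases below mTORC1, had 1152 and 1176 in Control, 1158 and 1003 in HF and 1155 and 1029 in HF+SFC+ALA. Its high-fat pools at 24 h were the lowest, with -0.11 ± 0.09 for fasting and -0.11 ± 0.11 for HF. Rpl11, which binds Mdm2 when assembly fails, had 0.01 ± 0.10 for HF, and Rps19, mutated in Diamond-Blackfan anaemia, -0.06 ± 0.08. Where a member had further probe sets above the filter (43 in 20 members), 26 to 29 of the 43 had the sign of the one used, depending on the comparison. The median gap was 0.05 to 0.06, beside members' median differences of -0.02 to -0.06. The largest gaps were 1.40 for fasting, 0.50 for HF, 1.18 for the supplement and 1.12 for HF+SFC+ALA against Control.

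Ribosome biogenesis factors build the particles that the members enter. Of 36 such genes 35 were tested, and 30 of them were positive for fasting, with a median of 0.11; 2 of the 35 were called (2.41% of all genes). Rrs1 and Brix1, both needed to assemble the large subunit, rose. Rrs1 had 1957, 1819 and 1905 at 4 h and 2883, 2334 and 2357 at 24 h (Control, HF, HF+SFC+ALA). All 24 h pools were above all 4 h pools, by 0.41 ± 0.08 (limma adjusted p = 0.0354). Brix1 went from 1021, 990.3 and 1097 to 1738, 1262 and 1411, again without overlap, by 0.49 ± 0.10 (limma adjusted p = 0.0458). Both stayed higher under all 15 alternatives, from 0.33 to 0.46 for Rrs1 and from 0.28 to 0.56 for Brix1, but passed the test in 9 and 5 of them, with adjusted p up to 0.342 and 0.391. Both calls ended without either HF+SFC+ALA pool, without the signal filter, without the intensity trend, with the mean over probe sets and with fasting time alone in the model, and that of Brix1 also without either Control pool and after quantile normalization or centring. For HF against Control 32 of the 35 were negative and both HF pools were below both Control pools in 18 (18.9% of all genes), with a median of -0.19. None of them was called (0 in limma, 7 with an unadjusted p under 0.05, as had 14.7% of all genes), and the differences of Myc (-0.74 ± 0.21), a driver of ribosome production, and Gar1 (-0.50 ± 0.13), which guides RNA modification, are examples. With the supplement the median was 0.04 against HF and -0.14 against Control. Rrp9, which acts in small-subunit processing, had 589.8 and 496 in Control, 401 and 328 in HF and 130.4 and 245 in HF+SFC+ALA. The supplemented pools were the lowest, by -1.60 ± 0.28 against Control (limma adjusted p = 0.133).

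Of 19 genes that control ribosome production 17 were tested. For fasting 11 were positive and 6 negative, with a median of 0.04, and 1 was called (2.41% of all genes). For HF against Control 11 were negative and 6 positive, with a median of -0.04, and 0 were called (0.885% of all genes). Eif4ebp1, the repressor of cap-dependent translation that mTORC1 switches off, had 4734, 3558 and 3463 at 4 h and 10931, 4502 and 5958 at 24 h. Each diet was higher at 24 h, most in Control, and the rise of 0.78 ± 0.13 passed (limma adjusted p = 0.0213), although the fasting times overlapped. Over 15 alternatives it ran from 0.561 to 0.995 and passed in 9, not without either HF+SFC+ALA pool, the filter or the trend, nor with the mean over probe sets or fasting time alone in the model (adjusted p up to 0.424). For HF against Control it had -0.85 ± 0.16 (adjusted p = 0.0537). Ddit4, an inhibitor of mTORC1 induced by stress, had 2104 and 4030.1 in Control, 1667 and 1268 in HF and 1113 and 1224 in HF+SFC+ALA. Both Control pools were above all others, with pairs of -0.34 at 4 h and -1.67 at 24 h for HF against Control and a fitted difference of -1.002 ± 0.24 (limma adjusted p = 0.103). Larp1, which binds the TOP motif, had -0.01 ± 0.07 for fasting and -0.19 ± 0.09 for HF.

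Translation factors whose mRNAs also carry the TOP motif (18 of 20 tested) had medians of 0.06 for fasting, -0.07 for HF and 0.01 for the supplement, with 0 calls in limma in each; 5, 6 and 1 had an unadjusted p under 0.05 (17.7%, 14.7% and 5.08% of all genes). Eif4b, a helper of the cap-binding helicase, had -0.32 ± 0.08 for HF and Naca, of the nascent chain complex, -0.23 ± 0.08. Fau, a ribosomal protein made as a fusion and so left out by the naming rule, had -0.09 ± 0.08. The 76 mitochondrial ribosomal proteins had medians of -0.03, -0.02 and -0.01. Among them 1 was called, higher in fasting, where 2.41% of all genes were called.

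**Figure D5:**
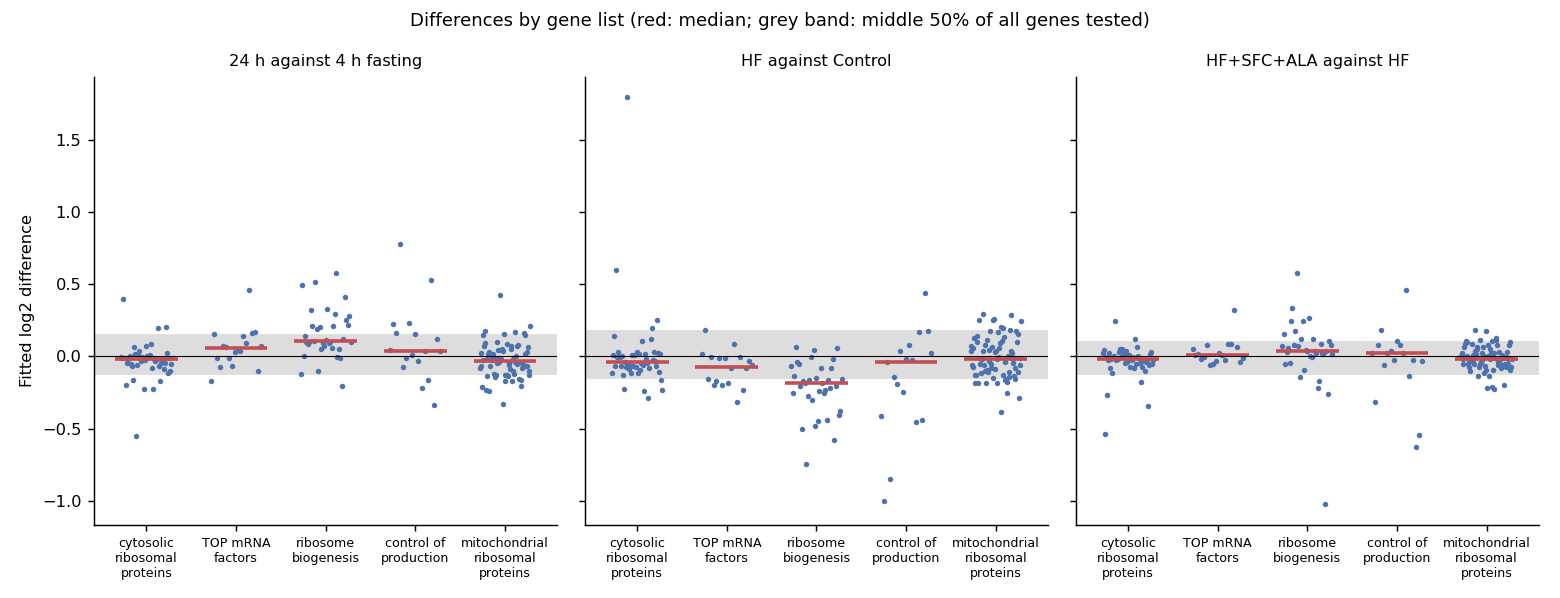
Fitted log2 differences of single genes (points) and their medians (red) in 5 gene lists for 3 comparisons; the grey band holds the middle 50% of all genes tested. Most ribosomal proteins lie inside the band, and the biogenesis median is 0.11 for fasting and -0.19 for HF against Control.

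Cell type markers were read beside these values. The summed signal of 12 muscle fibre markers was 456271 to 536790, with both ends in HF (lowest at 4 h, highest at 24 h), and none of the 12 was called by limma. For HF against Control 5 of the 6 adipocyte markers tested were positive, with a median of 2.04. All 6 fibroblast and all 4 smooth muscle markers were positive too. Called higher by limma were 3 adipocyte, 3 fibroblast and 1 smooth muscle marker (Tagln), where 0.885% of all genes were called. None of these calls held without the filter or the trend. All 9 macrophage markers were positive, and 0 of them were called (5 with an unadjusted p under 0.05 in limma, as had 14.7% of all genes). Single markers also differed with fasting, where Rrs1, Brix1 and Eif4ebp1 rose. Acta2 and Tagln (smooth muscle), Col1a1 (fibroblast), Cd163 (macrophage) and Ighm (lymphocyte) were called lower at 24 h, where 2.41% of all genes were called. Each lost its call under 6 or more alternatives. All 4 smooth muscle markers were negative, but 3 of 6 fibroblast and 3 of 9 macrophage markers were positive, with list medians of -0.07 and -0.03. Of 7 lymphocyte markers only 2 were tested, both negative. The fasting median was -0.74 for the adipocyte markers (4 of 6 negative) and -0.45 for the smooth muscle markers. For HF+SFC+ALA against HF the medians were -1.28 and -0.55, and -0.25 for the fibroblast markers, all 6 of them negative. There were 0 calls there, as over all genes (0%). An unadjusted p under 0.05 in limma was found for 3 of 6 adipocyte, 2 of 4 smooth muscle and 3 of 6 fibroblast markers, and for 5.08% of all genes. In bulk muscle, fewer cells of a type and less RNA per cell cannot be told apart, and the part of these cells in the members' values was not tested. Signal ratios of the 3′ to the 5′ end of actin were 1.08 to 1.52, with the top value in HF at 4 h, and those of GAPDH 0.814 to 0.863; their part was not tested either.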

How the data were processed

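Labelled RNA of 6 pools was hybridised to 1 array each. The authors deposited linear-scale intensity values from MAS5, per the submitters' processing notes, of unstated version. The trimmed mean was 500.004 on every array, so all had been scaled to a common level. From these values, probe sets with 1 gene symbol were kept (34945 of 45037 without controls), and the one with the highest mean log2 signal stood for each of 18193 genes. A floor at the 30th percentile (26.4) was applied before log2. Genes with a mean log2 signal above the median (5.88) were tested, 11526 in all.

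Diet and fasting time entered as additive terms in a fit to the 6 pools with limma 3.58.1 in R 4.3.3 (eBayes with trend; 2 residual and 7.27 prior degrees of freedom), p-values were adjusted by Benjamini-Hochberg over all genes at 0.05, and 95% intervals use the moderated spread. Values are log2 differences ± SE. The fit was tested on simulated data: with noise at the moderated spread most larger changes were found and false calls lay above the nominal share, with noise at the raw residual spread most changes were missed, so 0 calls do not show that nothing changed. Named are the 6 highest and 6 lowest members with the same sign in every pair of pools, and a fixed set of names; from each partner list, called genes and up to 3 with the largest differences. The members and lists were chosen with earlier results of these data known. Tables and figures were made in Python 3.11.15.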

Additional observations from a re-analysis of the deposited data

How the results depend on the processing

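Alternatives were quantile normalization, median centring, other filters and floors, the mean over probe sets, eBayes without trend, each pool left out in turn and, chosen after seeing the data, bright members only. The count of members called was 0 in 54 alternative fits and 1 in 3: Rpl39 was called for HF against Control without either Control pool and for HF+SFC+ALA against Control without the Control pool at 4 h (2.59), each time against 1 Control array whose spread is assumed to be that of the other groups. With pools left out, the members' median ran from -0.04 to 0.03 for fasting, from -0.0809 (without HF at 24 h) to -0.00885 (without HF at 4 h) for HF against Control, from -0.07 to 0.04 for HF+SFC+ALA against HF and from -0.12 to -0.00 for HF+SFC+ALA against Control. Among named members 593 values kept direction and side of the threshold and 10 turned sign, but 27 of 43 differences moved by over 1.5 times when a pool was left out, among them Rps9 for HF against Control (-0.31 to -0.02) and, for HF+SFC+ALA against Control, Rps26 (-0.23 to -0.02) and Rpl12 (-0.71 to -0.09). With the mean over probe sets the values that turned sign were Rps3 for fasting (0.22), Rpl35 and Rps29 for HF (0.0432 and -0.0259) and Rps18 and Rps20 for HF+SFC+ALA against Control (-0.00937 and -0.0171). That mean also takes in probe sets that are not above the filter by themselves. For Rps3 such a probe set gave 0.84, its others -0.08 and -0.11. For Rpl35 such a probe set gave 0.54, its others -0.13 to 0.05. With pools left out, Rps29 ran from -0.00977 (without HF at 24 h) to 0.0755 for HF against Control. For HF+SFC+ALA against HF, Rpl27a ran from -0.30 to 0.0685 (without HF+SFC+ALA at 24 h), Rps19bp1 from -0.00497 (without HF at 4 h) to 0.24 and Rps27 from -0.55 to 0.20 (without HF at 4 h). Rps20 ran from -9.28e-05 (without HF+SFC+ALA at 24 h) to 0.0993 for HF+SFC+ALA against Control. The cause of the turns with pools left out was not tested. Over all genes, the 278 calls for fasting and 102 for HF against Control became 18 and 1 with the mean over probe sets and 0 without the filter or the trend; with pools left out they were 59 to 455 and 47 to 592, and for fasting without diet in the model 60. For HF+SFC+ALA against HF the 0 calls became 6 with the filter at the 65th percentile and 0 to 109 with pools left out, and for HF+SFC+ALA against Control the 4 became 0 after quantile normalization, with the mean over probe sets and without the filter or the trend, and 0 to 435 with pools left out. Every fit but that of fasting time alone already held the other factor as a block; the labels number no replicates for any further pairing. With 6 arrays the intervals of all 37 bright members lay inside 1.5-fold, but those of only 5 to 7 of the 11 dim ones tested did, depending on the comparison.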
